A study of Mus musculus with 6 samples.

Results

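Astrocytes and Bergmann glia keep the cerebellar tissue fit for synaptic signalling, and 10 of the genes that carry out this work were followed here in whole cerebellum. They are the rows with the symbols *Aqp4*, *Slc1a2*, *Slc1a3*, *Gdf10*, *Gja1*, *Gjb6*, *Hopx*, *Fabp7*, *Glul* and *Sparcl1* among the 53746 genes of the count table, and all 10 were among the 16961 genes with enough counts to be tested. The *N153S* LSL allele encodes a constitutively active STING behind a loxP-flanked stop cassette. All 6 mice were homozygous for it (*N153S* LSL/LSL) and 2 months old, and 3 of them also carried *Pcp2-cre*, a transgene that is active in Purkinje cells and so removes the stop there. The *N153S* LSL/LSL *Pcp2-cre* mice (hereafter Pcp2-cre mice) were compared with the *N153S* LSL/LSL mice (control mice), and in each genotype mice 1 and 2 were male and mouse 3 was female. No wild-type mice and no mice with *Pcp2-cre* alone were analysed here, so the active STING cannot be told apart from the Cre transgene.

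Bergmann glia are the radial astrocytes of the cerebellar cortex. Their cell bodies sit in the Purkinje cell layer and their fibres run through the molecular layer, where they wrap the synapses on Purkinje cell dendrites. They take up the glutamate released there through GLAST (*Slc1a3*), with a smaller part for GLT-1 (*Slc1a2*), and turn it into glutamine with glutamine synthetase (*Glul*). *Gdf10*, a ligand of the TGF-beta family, *Hopx*, a homeodomain protein that lacks DNA binding, and *Fabp7*, a fatty acid binding protein of radial glia, mark Bergmann glia. Aquaporin-4 (*Aqp4*) is the water channel of astrocyte endfeet, connexin 43 (*Gja1*) and connexin 30 (*Gjb6*) form the gap junctions between astrocytes, and hevin (*Sparcl1*) is a secreted glycoprotein that helps synapses to form.

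*Sting1*, the gene that carries the allele, was at 25.5 ± 2.09 CPM (counts scaled to a common library size, mean ± SD, n = 3) in control mice and at 38.0 ± 5.55 CPM in Pcp2-cre mice (log2 fold change 0.57, SE 0.0969, adjusted p = 3.59e-04 by the quasi-likelihood test of edgeR). In public single-cell data, the paper found *Sting1* mRNA in microglia and little or none in Purkinje cells. By staining it detected STING protein in Purkinje cells of wild-type mice, and it regarded staining as the more reliable guide. In younger Pcp2-cre mice it reported more STING protein in Purkinje cells, and no increase in microglia or other neurons. Summed microglia markers were 125 to 130 CPM in control mice and 330 to 369 CPM in Pcp2-cre mice. Which cells held the added *Sting1* RNA was not tested. Libraries held 6733178 to 10178218 counts, each of the 10 genes had 247 to 13193 counts in every mouse, and 3 counts corresponded to 0.295 to 0.446 CPM, so none lay near the limit of detection. Control mice 1 and 2 stood apart in transcripts of the choroid plexus, the epithelium that makes cerebrospinal fluid. *Ttr*, its most abundant marker, was at 645 and 1027 CPM in these mice against 3.07 CPM in control mouse 3 and 4.21, 6.81 and 61.4 CPM in Pcp2-cre mice 1, 2 and 3, and values without both mice are given below. P-values describe the spread between these mice, and those of edgeR and limma use a spread estimated in part from all genes in the fit. In tissue of this kind, fewer cells of a type and less RNA per cell cannot be told apart.

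Of the 10 genes, 2 were higher in Pcp2-cre mice (*Aqp4* and *Gja1*) and 2 were lower (*Slc1a3* and *Gdf10*) at an adjusted p of at most 0.05, and the other 6 did not pass. Without control mouse 2, *Fabp7* and *Sparcl1* passed as well and 4 genes were higher, and without Pcp2-cre mouse 2 only *Slc1a3* was lower. Among all genes tested, 2.99% were higher and 4.75% were lower by this rule, or 7.74% in either direction. A single member, *Aqp4*, also had a log2 fold change of at least 0.5, as did 1.37% of all genes in the upward direction. No member was lower past both thresholds, beside 1.79% of all genes. The values of the 3 Pcp2-cre mice lay above those of all 3 control mice for 5 members and below them for 2, beside 10.8% and 11.4% of all genes. The median log2 fold change of the members was 0.08, and that of all genes was 0.00. The summed level of the 10 genes was 4676 to 4743 CPM in control mice and 4875 to 4941 CPM in Pcp2-cre mice.

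**Figure D1:**
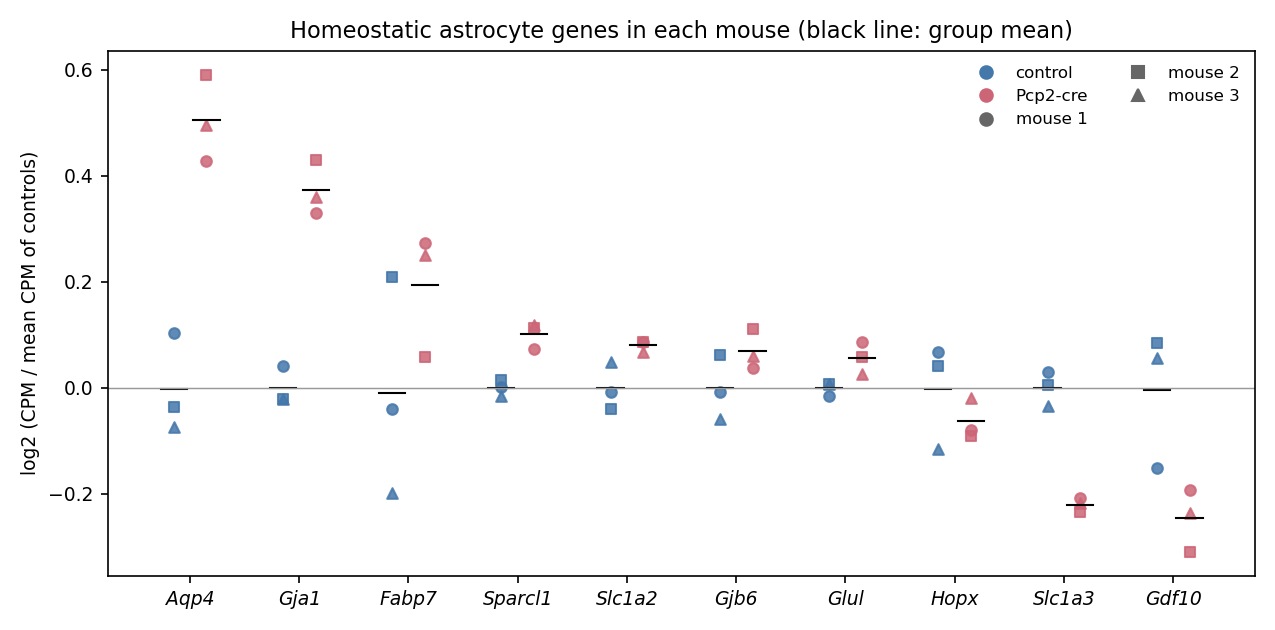
Level of each gene in each mouse, as log2 of its CPM over the mean CPM of the control mice (y axis; circles, squares and triangles are mice 1, 2 and 3, and black lines are group means). *Aqp4* and *Gja1* lie above all controls and *Slc1a3* and *Gdf10* below them, while *Fabp7*, *Gjb6* and *Hopx* overlap between the genotypes.

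The sequence before the start site was examined for the members with an entry in the RefSeq promoter table, which were 8 of the 10 (9 promoters, with *Aqp4* and *Sparcl1* not matched). The 250 bases before each RefSeq start were searched on both strands for 6 short motifs of factors that are known in astrocytes: nuclear factor I (TTGGCA), SOX (ACAAAG), RBPJ of the Notch pathway (TGGGAA), GLI of the hedgehog pathway (TGGGTGGTC), STAT (TTCNNNGAA) and AP-1 (TGANTCA). A match was found in 3 members, and the 30 bases with each match follow, 5′ to 3′ on the strand of the gene with the match in capitals, since the other 5 members with an entry held no match.
*Gja1*, AP-1: cctccttccagtTGAGTCAgtggcttgaaa
*Fabp7*, RBPJ: gTTCCCAggccccgctgacttcctttagag
*Slc1a3*, STAT: attcaggatccTTCCAAGAAatttcagtta
On GRCm39 these stretches are chr10:56253365-56253394 (forward strand), chr10:57660769-57660798 (forward strand) and chr15:8740369-8740398 (reverse strand). Among 32841 promoters of the table, the AP-1 letters were present in 6.75%, the RBPJ letters in 21.6% and the STAT letters in 7.02%. The other 3 motifs, which had no match in the members, were present in 12.3% (nuclear factor I), 16.5% (SOX) and 0.225% (GLI). The *Fabp7* match is the RBPJ motif read on the other strand, and no 2 matches lay in the same promoter. In the Gencode annotation the *Fabp7* stretch lies before the gene, whereas those of *Gja1* and *Slc1a3* lie within annotated exons of their genes. Such exons covered all 250 bases searched for *Slc1a3* and for *Gdf10* and 155 of those for *Gja1*. They covered 0 to 97 bases in the other promoters searched. The bases searched for *Slc1a2* (chr2:102536533-102536782) lay inside the annotated gene, with 29 of them in exons. So did those of a *Hopx* promoter (chr5:77243115-77243364), with 97 in exons. Both belong to RefSeq starts within the gene, so these bases are not upstream of the whole gene. A match gives the letters in this window and no binding was measured.

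Levels of different genes can be compared per transcript length, for which the authors' FPKM values (fragments scaled to transcript length and library size) were used. *Sparcl1* had the highest level in control mice, at 503.8 ± 5.12 FPKM (n = 3). The glutamate transporter *Slc1a3* and the glutamine synthetase *Glul* followed at 258.3 ± 5.27 and 250.8 ± 3.01 FPKM, and the ranges of these 2 genes overlapped between control mice. Next came *Hopx* at 70.1 ± 4.76, *Aqp4* at 61.7 ± 4.26, *Gja1* at 60.3 ± 2.01 and *Slc1a2* at 59.3 ± 1.28 FPKM, and no neighbours among these 4 could be separated beyond the spread between mice. *Fabp7* (33.9 ± 3.54 FPKM) and *Gjb6* (32.9 ± 0.776 FPKM) also overlapped, and *Gdf10* was lowest at 27.9 ± 1.46 FPKM. In Pcp2-cre mice the order of the means changed at 2 places: *Glul* (263.0 ± 13.7 FPKM) stood above *Slc1a3* (220.2 ± 12.5 FPKM), and *Aqp4* (90.4 ± 7.32 FPKM) and *Gja1* (79.6 ± 4.66 FPKM) stood above *Hopx* (67.0 ± 3.78 FPKM).

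**Figure D2:**
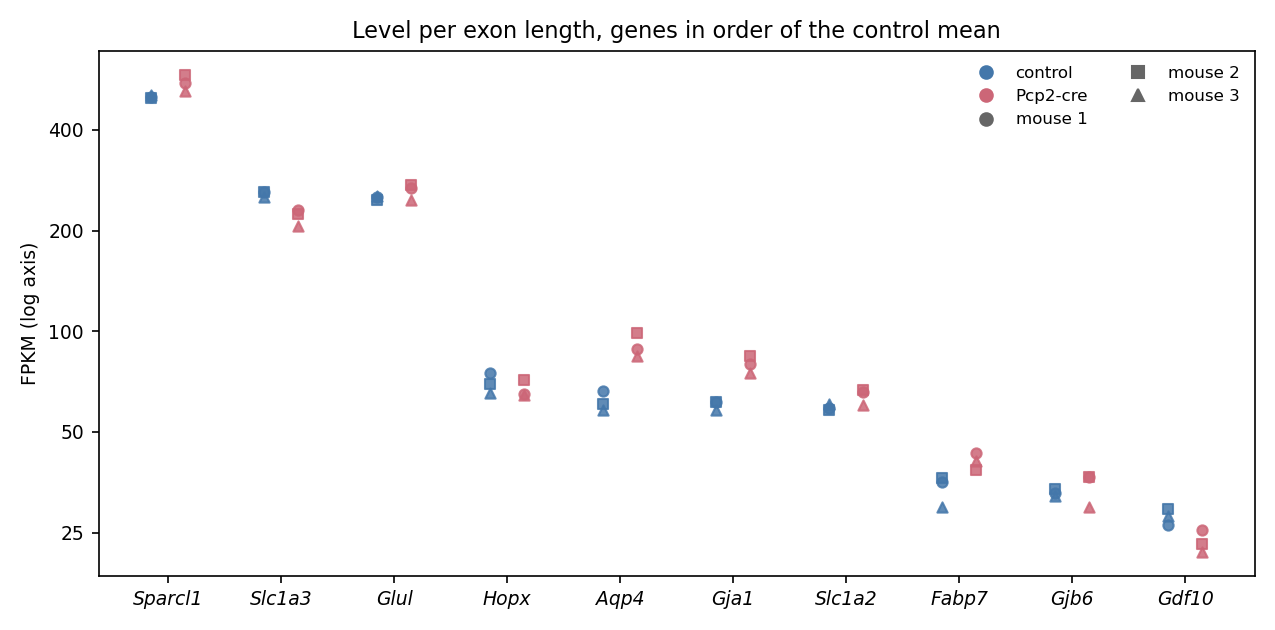
FPKM of each gene in each mouse on a log axis, with genes in the order of their control means (blue, control; red, Pcp2-cre; circles, squares and triangles are mice 1, 2 and 3). *Sparcl1* lies highest, *Slc1a3* and *Glul* follow, and the other 7 genes lie between 21.9 and 98.5 FPKM.

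*Aqp4*, on the reverse strand of chromosome 18 (GRCm39, 15522451 to 15544039), showed the largest change among the 10 genes. It was at 358, 324 and 316 CPM in control mice 1, 2 and 3 and at 448, 501 and 469 CPM in Pcp2-cre mice 1, 2 and 3. The lowest Pcp2-cre mouse was above the highest control mouse, and the mean rose from 332.6 ± 22.002 to 472.6 ± 26.8 CPM, a gain of 42.1%. The log2 fold change was 0.51 (SE 0.0490, 95% interval 0.41 to 0.61, edgeR adjusted p = 2.37e-07). Its position beside the threshold of 0.5 depended on single mice: it was 0.49 without control mouse 2, 0.47 without control mouse 3 and 0.46 without Pcp2-cre mouse 2, with an adjusted p of at most 9.36e-05 in each case.

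Of the 2 connexins of astrocytes, *Gja1* passed the test and *Gjb6* did not. *Gja1* (connexin 43, chromosome 10, 56253241 to 56278609, forward strand) was at 212, 203 and 203 CPM in control mice and at 259, 278 and 265 CPM in Pcp2-cre mice, in the order of mouse number. All 3 Pcp2-cre mice were above all 3 control mice, with means of 206.4 ± 5.22 and 267.5 ± 9.49 CPM, a log2 fold change of 0.37 (SE 0.0429) and an adjusted p of 2.65e-06 by edgeR. *Gjb6* (connexin 30, chromosome 14, 57360757 to 57371087, reverse strand) was at 71.4, 74.9 and 68.9 CPM in control mice and at 73.6, 77.5 and 74.7 CPM in Pcp2-cre mice. Its ranges overlapped, and the log2 fold change of 0.08 (95% interval -0.03 to 0.18) did not pass in edgeR (adjusted p = 0.50).

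*Slc1a3* (GLAST, chromosome 15, 8663604 to 8741595, reverse strand) was lower in Pcp2-cre mice. Its values were 1111, 1092 and 1063 CPM in control mice and 942, 925 and 936 CPM in Pcp2-cre mice. No Pcp2-cre mouse reached the lowest control, and the mean fell by 14.2%, from 1089 ± 24.5 to 934 ± 8.68 CPM (log2 fold change -0.22, SE 0.0333, 95% interval -0.29 to -0.15, edgeR adjusted p = 9.95e-05). With limma on log2(FPKM + 1) it was -0.23 with an adjusted p of 0.0470, which became 0.184 without a filter on low values. The second glutamate transporter, *Slc1a2* (GLT-1, chromosome 2, 102488574 to 102621129, forward strand), was at 745, 729 and 775 CPM in control mice and at 796, 796 and 786 CPM in Pcp2-cre mice. Although each Pcp2-cre mouse was above each control, the log2 fold change of 0.08 (95% interval 0.01 to 0.15) did not pass (edgeR, adjusted p = 0.225). *Glul*, which makes glutamine from the glutamate taken up (chromosome 1, 153775690 to 153785469, forward strand), was at 654, 664 and 664 CPM against 701, 687 and 672 CPM. Its groups did not overlap either, with a log2 fold change of 0.06 (95% interval -0.02 to 0.13) and an adjusted p of 0.439 by edgeR.

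Of the 3 markers of Bergmann glia, *Gdf10* passed the test and *Hopx* and *Fabp7* did not. *Gdf10* (chromosome 14, 33645273 to 33659940, forward strand) was at 147, 174 and 170 CPM in control mice and at 143, 132 and 139 CPM in Pcp2-cre mice. The groups were separated by the gap between control mouse 1 and Pcp2-cre mouse 1, which was small, and the mean fell by 15.6%, from 163.8 ± 14.2 to 138.2 ± 5.62 CPM (log2 fold change -0.25, SE 0.0536, edgeR adjusted p = 0.00424). Without Pcp2-cre mouse 2 the change was -0.21 and did not pass (adjusted p = 0.0816 by edgeR), nor did it pass with limma on the log2(FPKM + 1) scale (-0.24, adjusted p = 0.0955). *Hopx* (chromosome 5, 77234831 to 77263022, reverse strand) was at 92.2, 90.5 and 81.1 CPM in control mice and at 83.2, 82.5 and 86.8 CPM in Pcp2-cre mice. The 3 Pcp2-cre values fell within the range of the controls (log2 fold change -0.06, 95% interval -0.17 to 0.05, edgeR adjusted p = 0.647). *Fabp7* (chromosome 10, 57660956 to 57664554, forward strand) was at 30.9, 36.8 and 27.7 CPM against 38.5, 33.1 and 37.9 CPM. Pcp2-cre mouse 2 was below control mouse 2, and the log2 fold change of 0.21 (95% interval 0.01 to 0.41) did not pass (edgeR, adjusted p = 0.230), and single mice moved it both ways. It was 0.31 without control mouse 2 (adjusted p = 0.0458), 0.11 without control mouse 3 (adjusted p = 0.610) and 0.08 in males only (adjusted p = 0.766).

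*Sparcl1* (hevin, chromosome 5, 104226288 to 104262065, reverse strand) lay next to the threshold. It was at 1321, 1334 and 1307 CPM in control mice and at 1390, 1429 and 1434 CPM in Pcp2-cre mice. The groups did not overlap, the mean differed by 7.33%, and the log2 fold change of 0.10 (SE 0.0314, 95% interval 0.04 to 0.17) had an adjusted p of 0.0512 by edgeR. Without control mouse 2 the adjusted p was 0.0177 by edgeR, and *Sparcl1* also passed without control mouse 1 (0.0382) or Pcp2-cre mouse 1 (0.0386). It did not pass without control mouse 3 (edgeR, adjusted p = 0.170), Pcp2-cre mouse 2 (0.105) or Pcp2-cre mouse 3 (0.162).

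**Figure D3:**
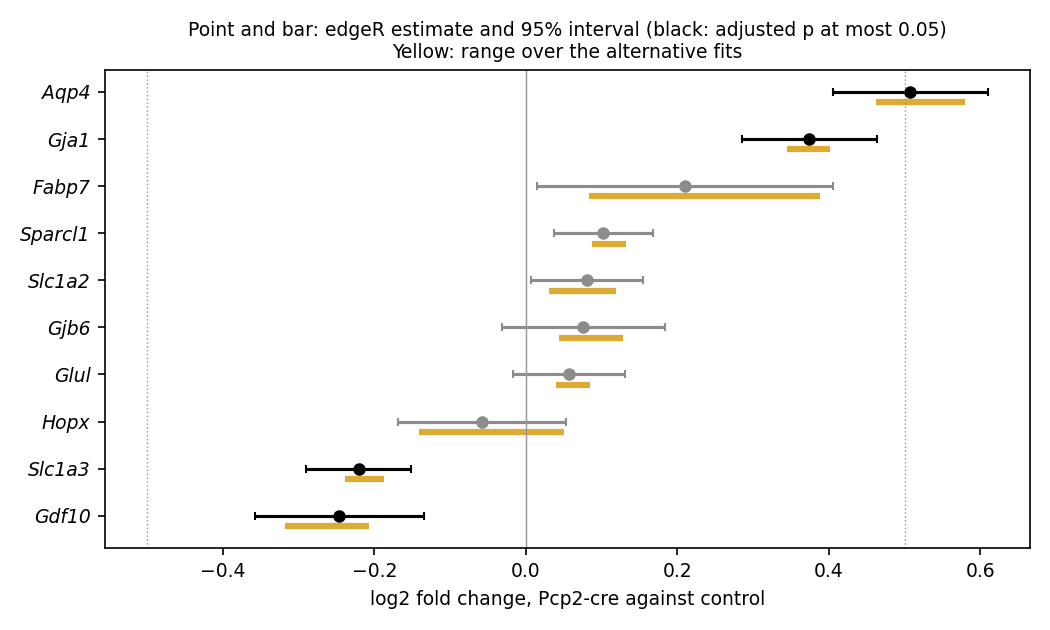
Log2 fold change of each gene, Pcp2-cre against control (point, edgeR estimate; bar, 95% interval; black, adjusted p of at most 0.05; yellow, range over the alternative analyses; dotted lines, a log2 fold change of 0.5 in either direction). The intervals of *Aqp4* and *Gja1* lie above 0 and those of *Slc1a3* and *Gdf10* below it. Those of *Slc1a2*, *Fabp7* and *Sparcl1* also lie above 0, although these genes did not pass after adjustment. The intervals of *Gjb6*, *Hopx* and *Glul* include 0, and the yellow range of *Hopx* crosses 0.

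The summed choroid plexus markers were high in 2 mice and did not separate the genotypes, since control mouse 3 lay within the range of the Pcp2-cre mice. With control mice 1 and 2 left out, a choice made after seeing the data that assumes the lone control mouse to vary like the Pcp2-cre mice, *Fabp7* had a log2 fold change of 0.39 (edgeR, adjusted p = 0.0470) and *Hopx* one of 0.05 (adjusted p = 0.833). The 4 genes that passed in all 6 mice also passed in this comparison, with 0.58 for *Aqp4*, 0.39 for *Gja1*, -0.19 for *Slc1a3* and -0.30 for *Gdf10* and a highest adjusted p of 0.00248. The markers of the choroid plexus summed to 832 and 1286 CPM in control mice 1 and 2, 35.5 CPM in control mouse 3 and 26.1 to 92.9 CPM in Pcp2-cre mice, and 7 of the 10 were tested. Their part in the values of *Fabp7* and *Hopx* was not tested further. With an interaction term for genotype and sex, 0 members passed (edgeR, lowest adjusted p = 0.888), beside 35 of the 16961 genes tested. *Hopx* and *Fabp7* were at an unadjusted p under 0.05 in edgeR. The share of all genes under that unadjusted threshold was not determined, so no result is drawn from these 2. Each genotype had 1 female mouse, so the spread came from the males, and the control males were the mice with choroid plexus RNA, so sex and that RNA cannot be told apart.

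The ratio of 2 genes within a mouse does not depend on how libraries are scaled, and 6 pairs were compared. For the glutamate transporters, the log2 ratio of *Slc1a2* to *Slc1a3* counts was -0.58, -0.58 and -0.46 in control mice and -0.24, -0.22 and -0.25 in Pcp2-cre mice. The ratio was higher in each Pcp2-cre mouse, by 0.30 on average. The exact permutation test (two-sided) gave p = 0.10, which is the smallest that 3 against 3 mice can give, and 0.12 after adjustment over the 6 pairs. The same p-values applied to 4 further pairs whose groups did not overlap. The log2 ratio of *Gja1* to *Gjb6* was 1.53 ± 0.0735 in control mice and 1.83 ± 0.0133 in Pcp2-cre mice, a difference of 0.30. That of *Glul* to *Slc1a3* was -0.72 ± 0.0432 in control mice and -0.44 ± 0.0289 in Pcp2-cre mice.

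*Aqp4* and the potassium channel gene *Kcnj10* (Kir4.1), whose products share the astrocyte endfoot, differed in direction. Their log2 ratio was 0.66, 0.51 and 0.50 in control mice and 1.19, 1.32 and 1.19 in Pcp2-cre mice, a difference of 0.67. *Gfap*, the intermediate filament gene of reactive astrocytes, was compared with *Aqp4*, and the log2 ratio was -1.46 ± 0.182 in control mice and -0.03 ± 0.107 in Pcp2-cre mice, so the 2 genes had nearly equal counts in the latter. The pair that showed no separation was *Gdf10* to *Slc1a3*, with log2 ratios of -2.74 ± 0.154 and -2.76 ± 0.0456 (exact permutation test, p = 0.90). *Slc1a3* is the denominator of 3 of the 6 pairs, so these are not independent of each other. Each separated pair also holds a gene that passed on its own in the same mice. The ratios therefore restate the changes of single genes and are not separate evidence for them.

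**Figure D4:**
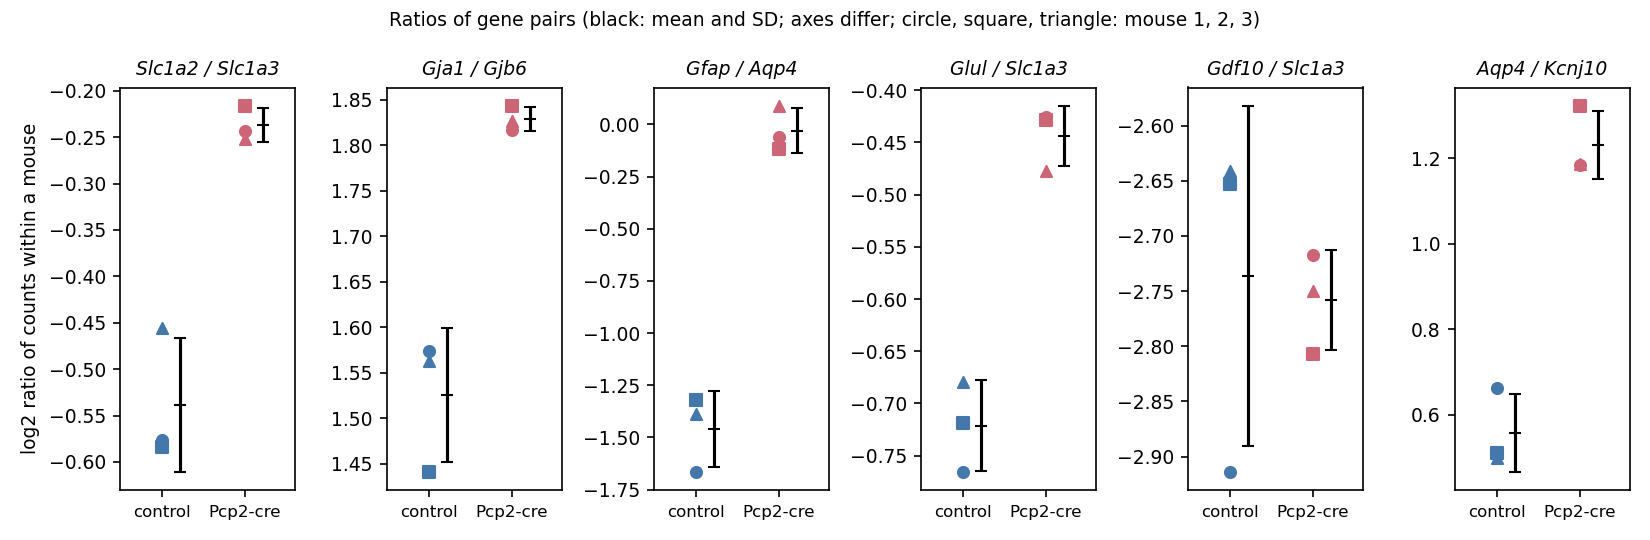
Log2 ratio of the counts of 2 genes within each mouse, for 6 pairs (circles, squares and triangles are mice 1, 2 and 3; black, mean and SD; each panel has its own axis). The genotypes are separate in 5 pairs and overlap for *Gdf10* over *Slc1a3*.

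Genes that work beside *Aqp4* in handling water and potassium or in anchoring the endfoot numbered 12, of which 2 were higher and 2 lower (edgeR, adjusted p of at most 0.05, median log2 fold change 0.05). Among all genes tested, 2.99% were higher and 4.75% were lower by this rule. The counts in the lists that follow stand beside the same shares. *Atp1b2*, a subunit of the glial sodium pump, rose by 0.19 on the log2 scale (adjusted p = 2.72e-04), and *Hepacam*, an adhesion molecule of astrocytes that binds MLC1, rose by 0.20 (adjusted p = 0.00784). *Dmd*, which encodes dystrophin and is also expressed in Purkinje cells, was lower at -0.31 (adjusted p = 0.00127) in the counts. In FPKM it was at 4.87 ± 0.22 in control mice and 4.91 ± 0.527 in Pcp2-cre mice, without a decrease. *Kcnj10* was at 226, 228 and 223 CPM in control mice and at 197, 200 and 206 CPM in Pcp2-cre mice, without overlap (log2 fold change -0.17, adjusted p = 0.0115 by edgeR). The bicarbonate transporter *Slc4a4* (0.01, adjusted p = 0.961) did not pass.

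Of 14 other genes for glutamate and glutamine handling, 13 were tested, and 2 were higher and 1 lower (median log2 fold change -0.02). The glutamine transporter *Slc38a3*, through which astrocytes release glutamine, was higher at 0.24 (edgeR, adjusted p = 0.00229), and the cystine and glutamate exchanger *Slc7a11* was higher at 0.40 (adjusted p = 0.00595). *Slc1a6*, the glutamate transporter of Purkinje cells, was lower at -0.47 (adjusted p = 1.75e-06). *Slc38a1*, an abundant neutral amino acid transporter gene of the list, was at -0.04 and did not pass. No other connexin or pannexin gene passed (0 of 10 tested of 12 listed; median 0.12), including the most abundant ones, *Gjc3* (0.18, edgeR adjusted p = 0.0599) and *Panx2* (0.05, adjusted p = 0.681).

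Among 12 other genes of Bergmann glia, 5 were lower and 1 was higher (median log2 fold change -0.04). *Tnc*, which encodes the matrix glycoprotein tenascin-C, was at 29.9, 31.7 and 24.9 CPM in control mice and at 13.4, 10.04 and 13.3 CPM in Pcp2-cre mice (log2 fold change -1.23, SE 0.12, edgeR adjusted p = 2.63e-07). *Itih3*, a heavy chain that binds hyaluronan in the matrix, was at 60.6, 67.2 and 65.3 CPM against 39.0, 36.9 and 35.8 CPM (-0.79, SE 0.0659, adjusted p = 2.78e-08). These 2 were the genes of the list past both thresholds, and neither overlapped between the genotypes. The AMPA receptor subunit *Gria1* (-0.25, adjusted p = 1.39e-04), which neurons also express, was lower, and the protease inhibitor *A2m* was higher (0.25, adjusted p = 0.00114). *Gria4* (-0.01) and the receptor phosphatase *Ptprz1* (-0.05) did not pass.

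Among 30 other general astrocyte genes, 10 were higher and 1 was lower (median log2 fold change 0.14). The lipoprotein gene *Apoe* (0.64, edgeR adjusted p = 3.37e-09), the protease inhibitor *Cst3* (0.37, adjusted p = 2.47e-05) and the peroxiredoxin *Prdx6* (0.24, adjusted p = 2.94e-04) were higher, and microglia also express *Apoe* and *Cst3*. The gene that was lower was *Aldoc* (-0.35, adjusted p = 2.50e-06), an aldolase that is also present in a subset of Purkinje cells. *Ndrg2* was also higher, at 0.17 (adjusted p = 0.00922). Of 10 genes through which astrocytes organize or engulf synapses, as *Sparcl1* does in part, 9 were tested, with 1 higher (*Thbs1*, 0.44, edgeR adjusted p = 0.00685) and 1 lower (*Chrdl1*, -0.76, adjusted p = 0.00731). *Sparc*, the relative of *Sparcl1*, was at 0.07 and did not pass (adjusted p = 0.313).

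Both relatives of *Fabp7* in brain passed the test. *Fabp5* was at 28.8, 26.5 and 27.6 CPM in control mice and at 37.7, 36.1 and 39.2 CPM in Pcp2-cre mice (log2 fold change 0.44, SE 0.0753, edgeR adjusted p = 4.14e-04), and *Fabp3* was at 33.6, 37.8 and 29.3 CPM against 43.5, 41.9 and 43.5 CPM (0.37, SE 0.0828, adjusted p = 0.00542). Neither overlapped between the genotypes, while *Fabp7* did in CPM. In FPKM, *Fabp7* was at 35.5, 36.4 and 29.9 in control mice and at 43.3, 38.5 and 41.1 in Pcp2-cre mice, without overlap. The reverse held for *Slc1a2* and *Glul*, whose groups did not overlap in CPM and overlapped in FPKM. The difference between *Fabp7* and its relatives was not tested.

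Genes of reactive astrocytes were measured in the same mice. Of 16 tested (18 listed), 10 were higher and 0 were lower, with a median log2 fold change of 0.61 beside the 0.08 of the homeostatic genes. The list was chosen with these data known and is not independent evidence of its direction. *Gfap* was at 113, 130 and 121 CPM in control mice and at 429, 462 and 499 CPM in Pcp2-cre mice (1.94, edgeR adjusted p = 4.43e-15). The acute phase gene *Serpina3n* (2.82, adjusted p = 8.14e-10) and the intermediate filament gene *Vim* (0.41, adjusted p = 2.19e-06) were also higher. The complement gene *C3*, which microglia express too, was counted 2, 1 and 8 times in control mice 1, 2 and 3 and 23, 33 and 35 times in Pcp2-cre mice. *Stat3* (0.16, adjusted p = 0.0928) and the ferroxidase *Cp* (0.04, adjusted p = 0.866) did not pass.

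**Figure D5:**
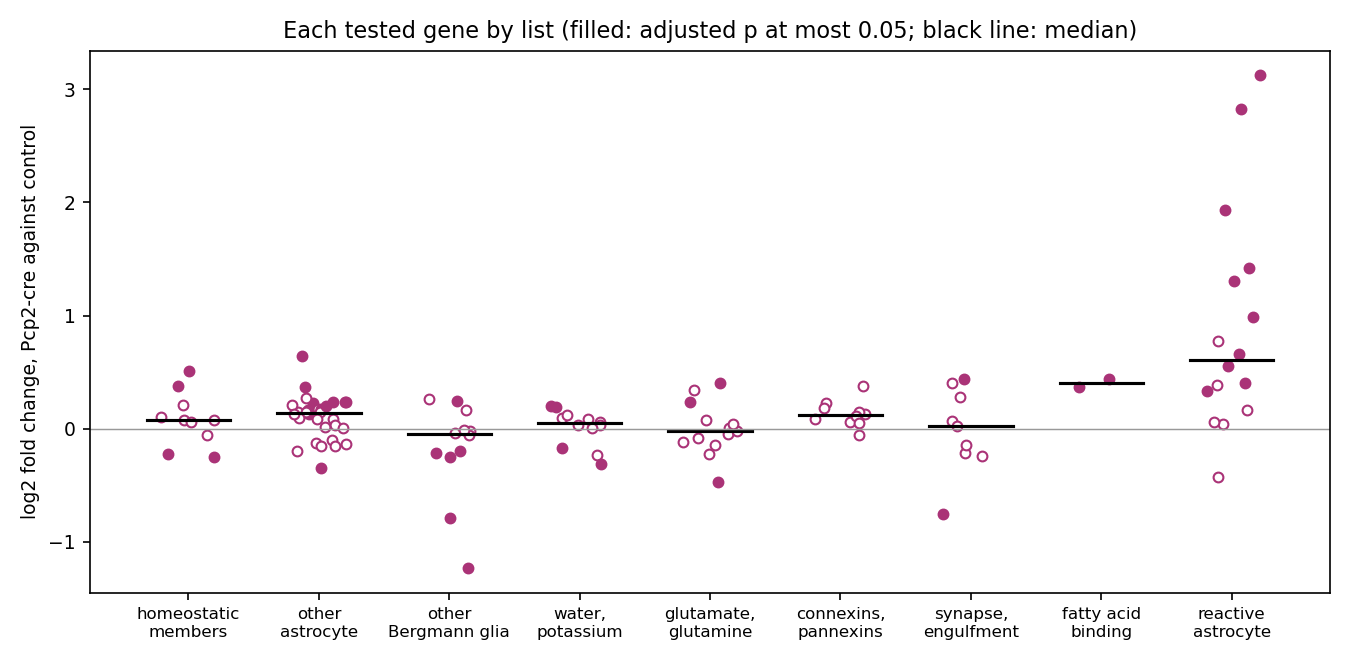
Log2 fold change of each tested gene, Pcp2-cre against control, for the 10 homeostatic genes and 8 further lists of astrocyte genes (filled points, edgeR adjusted p of at most 0.05; black lines, medians). The homeostatic genes lie between -0.25 and 0.51, and the reactive genes reach 3.12.

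Markers of other cell types were compared in the same libraries. Among all genes tested, 2.99% were higher and 4.75% were lower at the same threshold in edgeR. All 10 Purkinje cell markers were lower, and their summed level was 7830 to 8576 CPM in control mice and 4329 to 4823 CPM in Pcp2-cre mice. Of 10 microglia markers 8 were higher, with sums of 125 to 130 and 330 to 369 CPM, and of 10 oligodendrocyte markers 7 were higher, with sums of 3782 to 4035 and 4444 to 4659 CPM. Of 8 oligodendrocyte precursor markers 3 were higher, of 8 interneuron markers 3 were lower, and of 10 granule cell markers 1 was higher. None of 10 endothelial and 10 meningeal fibroblast markers passed in edgeR, and 6 of the 7 tested choroid plexus markers were lower, 1 of the 7 without overlap between the genotypes. No marker in these lists was at 0 in every mouse. The part of these cell types in the values of the 10 homeostatic genes was not tested.

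Several members share exonic bases with a gene on the other strand in the Gencode annotation of GRCm39, and whether counting used the strand is not given in the sources used here. The longest overlap was that of *Hopx* with the antisense transcript *Hopxos* (864 bp, up to 422 counts per mouse for *Hopxos* against 587 to 819 for *Hopx*). *Sparcl1* overlaps *Gm26703* by 578 bp (up to 122 counts), *Slc1a2* overlaps *Gm13872* by 319 bp (up to 226 counts) and *Glul* overlaps *Teddm2* by 147 bp (up to 447 counts). These are the overlaps with genes matched in the count table. Transcripts that were not matched there overlap *Gjb6* by 643 bp, *Slc1a3* by 500 bp, *Gdf10* by 154 bp, *Gja1* by 143 bp and *Fabp7* by 7 bp. *Aqp4* has no such overlap.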

How the data were processed

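RNA sequencing of whole cerebellum was available for 6 mice, 3 per genotype. The authors perfused the mice with PBS, sequenced poly A-enriched libraries with paired reads, trimmed the reads and mapped them with STAR (GRCm39). Quantification was by featureCounts and StringTie, based on Gencode, and tool versions and the use of strand are not given in the sources used here. One deposited table holds raw counts and the other FPKM, both by gene and mouse. Counts were taken to be those of featureCounts, since they are whole numbers.

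From the deposited counts, R 4.3.3 with edgeR 4.0.16 (filterByExpr, TMM, glmQLFit, glmQLFTest) gave fold changes, with Benjamini-Hochberg adjustment over all genes tested and genotype as the term. The thresholds were an adjusted p of 0.05 and, where stated, a log2 fold change of 0.5, as in the study. A standard error was derived from the fold change and its test statistic. The test was first checked on simulated data. Ratios of 2 genes were log2 ratios of counts within a mouse, tested by an exact permutation test. DESeq2 1.42.0 and limma 3.58.1 (on log2(FPKM + 1) or log2(FPKM + 0.1)) served as alternatives, beside other scalings and filters, covariates, males only and leaving out each mouse.

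The members and the gene lists were chosen with earlier results of these data known. From each list, up to 4 genes with the smallest p among those that passed and up to 2 further genes with the highest mean CPM were named, as were the genes of the pairs; some genes that this rule names are not reported here. No library of a genotype repeated another within counting error (chi-square over genes, 1.38 to 3.21 per gene), and all 6 were used. Gene positions come from Gencode vM39 on GRCm39. Promoter sequences are those of the RefSeq table, each found once on GRCm39 by its exact sequence.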

Additional observations from a re-analysis of the deposited data

How the results depend on the processing

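Across 19 alternatives for each of the 10 genes, 174 of the values kept their direction and their side of the threshold, 9 newly passed, 5 no longer passed and 2 turned. Both that turned were of *Hopx*, with 0.045 when a choroid plexus score was a covariate and 0.04996 when control mice 1 and 2 were left out, a choice made after seeing the data. Genes higher were 2 to 4 without 1 mouse each, and genes lower were 1 to 2. The 1 gene past both thresholds, *Aqp4*, was 0 to 1 without 1 mouse each, 0 without a filter on low counts and 0 in males only. Genes lower were 1 with limma on log2(FPKM + 1), 1 on log2(FPKM + 0.1) and 0 on log2(FPKM + 1) without a filter, with *Gdf10* lost in all 3 and *Slc1a3* in the last (-0.23, adjusted p = 0.184). *Fabp7* passed with the choroid plexus score (0.39, edgeR adjusted p = 0.0292) and without control mouse 2 (0.31, adjusted p = 0.0458), and was lowest in males only (0.08, adjusted p = 0.766). *Sparcl1* passed with DESeq2 (adjusted p = 0.0190), with scaling by library size (edgeR, 0.00863) and with a minimum of 10 counts per mouse (0.0333). It did not pass in males only (edgeR, adjusted p = 0.302) or with limma on FPKM (adjusted p of 0.298 to 0.577). The log2 ratio of *Glul* to *Slc1a3* differed by 0.31 in males. With the replicate number as a block, 2 genes were higher, 2 lower and 1 past both thresholds. The numbers were not taken to pair mice, since deviations of same-numbered mice correlated at 0.0408, 0.0565 and 0.166 and not every mouse correlated best with its own number. The cause of these changes was not tested. With 3 mice per genotype no exact test of a single value can pass the threshold.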
